A study of Homo sapiens with 8 samples.

Results

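The genes described here are 42 human genes that carry out or time DNA replication, chosen by name as a replication and S-phase group and taken as every array probe annotated to 1 of these symbols. They fall into 6 roles: 11 replication licensing genes, 6 helicase activation genes, 14 genes of polymerases, clamp and lagging strand, 4 of deoxynucleotide synthesis, 4 cyclin E and E2F genes and 3 of replication-coupled chromatin. The array held 61 probes for them, among 47323 probes in all. After a filter on dim probes, 57 of these probes and 41 of the 42 genes were tested, among 12415 genes tested in all, each through its brightest probe. Of the 41, 40 were above background on all 8 arrays. The exception was GINS1, above background on 3 cultured arrays and on none of the tumor-dissociated ones. It is counted among the 41, but it passed the filter only through cultured arrays, so its direction between origins adds no support. CCNE2, which encodes a second E-type cyclin, was above background on 0 of 8 arrays, with intensities of 125.5 to 160.4 against a background level of 161.4, and was not tested.

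The RNA came from A375-LM3 cells, which derive from A375, an established cell line of human melanoma, and was read on Illumina HumanHT-12 V4 BeadChips, on which each probe gives 1 intensity per array. The 8 arrays form 4 groups of 2. Cultured cells that carried an empty vector and cultured cells that expressed JMJD3 (KDM6B, an enzyme that removes the repressive methyl mark set by Polycomb on histone H3) were kept in serum-containing medium for 1 day. Tumor-dissociated cells, again with vector or with JMJD3, had been isolated from a primary tumor formed by the same line and then kept in culture for 3 passages. Growth in a tumor, dissociation and the length of culture therefore differ together between the origins, and cannot be told apart. The labels do not give the promoter behind JMJD3, the number of clones or the host, nor whether each array of a pair had its own culture or tumor. The p-values thus rest on how far these arrays differ, and that spread may be technical.

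A cell replicates its genome once per cycle. In G1 the origin recognition complex, CDC6 and CDT1 load the MCM helicase onto DNA, and geminin stops reloading once S phase has begun. Helicase activation by MCM10, CDC45 and the GINS complex then starts the forks, at which the primase, the polymerases and the PCNA clamp work, while ribonucleotide reductase and thymidylate synthase supply the building blocks and the CAF-1 complex puts new nucleosomes in place. Many of these genes are transcribed at the G1 to S boundary under E2F factors once cyclin-dependent kinases have inactivated RB. In melanoma cells as in other tumor cells, their messages are commonly read as a proliferation signature. In RNA from a whole culture, fewer cells in S phase and less of the RNA per cell cannot be told apart.

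The 8 arrays had near-identical intensity distributions after the authors' processing, with 19913 to 19923 probes above background on each, and replicate arrays correlated at r = 0.981 to 0.993. The counts follow from the equal distributions and do not measure the quality of the arrays. Of the 12415 genes, 21.5% were highest and 19.6% lowest on tumor-dissociated JMJD3 replicate 1, and 16% highest and 16.3% lowest on tumor-dissociated vector replicate 2. These 2 arrays had also stood apart in earlier results of these data, so results that rest on them are given with and without them. The probe for KDM6B was above background on 1 of 8 arrays, at 140.6 to 161.7, and did not check the JMJD3 label. Of 8 melanocyte and melanoma markers with a probe, SOX10, MITF and S100A1 were above background on all 8 arrays and MLANA, TYR and S100B on 0. Their summed intensity above the background mode was 2076 to 3231 on the cultured arrays and 313 to 2376 on the tumor-dissociated arrays, with SOX10 at 230.5 to 3096 over the 8 arrays. Fibroblast markers differed with origin: 5 of 7 were above background in each cultured group and 7 of 7 in each tumor-dissociated group, and their sum was 275 to 462 on the cultured arrays against 1314 to 2827 on the tumor-dissociated arrays. Of 5 leukocyte markers with a probe, CD14 and CD68 were above background on all 8 arrays, ITGAM on 1 and PTPRC and CD3E on 0, and the sum was 1235 to 1512 on the cultured and 1236 to 1651 on the tumor-dissociated arrays. Of 4 endothelial markers PECAM1 was above background on 2 arrays and CDH5, VWF and KDR on 0, with sums of 6 to 19 and of 24 to 63. The part of other cell types in the differences between origins was not tested.

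The promoters of the genes show the sequence elements known for this group. RefSeq promoters of GRCh38.p14, each 300 bases long from 250 before to 50 after the first listed start, were matched for 38 of the 42 genes (not for MCM4, MCM5, GINS4 and CCNE2). The E2F words TTTCCCGC and TTTGGCGC, searched on both strands, stood in 18 of the 38 promoters (47.4%), against 2.31% of all 27305 promoters and 3.62% of the 9935 promoters of genes tested. The word CCAAT, bound by NF-Y and also searched on both strands, stood in 21 of the 38 (55.3%), against 35.7% of all promoters. In 2 of the 38 promoters 2 of these matches overlapped. Of the 19 E2F words, 17 began before the start site, at most 187 bases from it. The promoters below are those of RFC3, RRM2 and TYMS, which had some of the largest differences between origins, of MCM6, which held E2F words 152 and 90 bases before its start, and of ORC6 and POLA2, whose brightest probes differed least. Capitals mark E2F words and CCAAT on either strand.
RFC3, chr13:33817899-33818198, plus strand: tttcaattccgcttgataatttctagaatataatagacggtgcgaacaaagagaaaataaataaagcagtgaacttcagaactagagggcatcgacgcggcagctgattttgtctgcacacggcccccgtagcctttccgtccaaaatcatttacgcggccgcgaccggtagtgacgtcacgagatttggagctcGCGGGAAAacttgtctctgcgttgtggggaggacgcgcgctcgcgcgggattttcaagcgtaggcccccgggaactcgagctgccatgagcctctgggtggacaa
TYMS, chr18:657403-657702, plus strand: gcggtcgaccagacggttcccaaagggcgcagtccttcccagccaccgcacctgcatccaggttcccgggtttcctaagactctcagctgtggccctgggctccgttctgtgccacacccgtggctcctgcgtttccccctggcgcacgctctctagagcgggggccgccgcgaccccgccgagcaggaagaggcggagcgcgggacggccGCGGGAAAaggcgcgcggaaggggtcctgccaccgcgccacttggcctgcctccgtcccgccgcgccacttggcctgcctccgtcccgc
MCM6, chr2:135876394-135876693, minus strand: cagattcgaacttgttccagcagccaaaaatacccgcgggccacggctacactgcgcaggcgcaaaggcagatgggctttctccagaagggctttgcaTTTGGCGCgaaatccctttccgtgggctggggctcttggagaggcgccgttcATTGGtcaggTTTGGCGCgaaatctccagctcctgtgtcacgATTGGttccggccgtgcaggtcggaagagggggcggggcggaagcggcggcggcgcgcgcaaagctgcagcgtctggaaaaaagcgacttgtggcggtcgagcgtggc
RRM2, chr2:10122489-10122788, plus strand: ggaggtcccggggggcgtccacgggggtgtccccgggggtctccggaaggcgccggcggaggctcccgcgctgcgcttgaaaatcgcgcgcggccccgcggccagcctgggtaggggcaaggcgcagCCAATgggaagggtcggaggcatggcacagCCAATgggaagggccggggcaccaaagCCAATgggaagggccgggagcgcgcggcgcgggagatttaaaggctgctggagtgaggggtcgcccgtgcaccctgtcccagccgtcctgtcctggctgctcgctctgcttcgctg
ORC6, chr16:46689409-46689708, plus strand: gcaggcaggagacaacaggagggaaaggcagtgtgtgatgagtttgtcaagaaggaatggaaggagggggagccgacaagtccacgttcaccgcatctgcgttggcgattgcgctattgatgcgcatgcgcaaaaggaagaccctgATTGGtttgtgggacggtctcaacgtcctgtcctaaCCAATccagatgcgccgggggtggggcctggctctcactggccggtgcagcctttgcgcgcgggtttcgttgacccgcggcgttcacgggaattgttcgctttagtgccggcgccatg
POLA2, chr11:65261712-65262011, plus strand: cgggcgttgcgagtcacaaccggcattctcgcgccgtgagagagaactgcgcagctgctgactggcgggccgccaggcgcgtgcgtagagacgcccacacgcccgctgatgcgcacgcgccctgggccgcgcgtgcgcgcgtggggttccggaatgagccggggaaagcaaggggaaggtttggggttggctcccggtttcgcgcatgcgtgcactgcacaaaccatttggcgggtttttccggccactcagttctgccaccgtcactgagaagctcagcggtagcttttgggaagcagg
RFC3 and TYMS held 1 E2F word each, 55 and 39 bases before the start, MCM6 held 2 of them with 2 CCAAT words, RRM2 held 3 CCAAT words and none of the E2F words, ORC6 held 2 CCAAT words and POLA2 held neither. No match says only that these letters are not in this window. Between origins, the 18 genes with an E2F word had a median log2 difference of -0.51 in vector cells and -0.43 in JMJD3 cells, and the 20 genes without one had -0.38 and -0.43.

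Tumor-dissociated cells had lower levels of replication mRNAs than cultured cells, with medians below 0 in all 6 roles, although few single genes passed the test. In vector cells 40 of the 41 genes had a log2 difference below 0 (tumor-dissociated minus cultured), with a median of -0.46, while 52.9% of all genes were below 0 and their median was -0.03. In JMJD3 cells 41 of 41 were below 0, with a median of -0.42, beside 51.2% of all genes and a median of -0.01. The vector and JMJD3 comparisons share no array, and 40 of 41 genes were below 0 in both, against 38.9% of all genes. The genes varied together from array to array, so these counts are not separate results for each gene. Beside these medians, the pooled spread of the median gene between replicates was 0.211. In vector cells the largest differences belonged to RRM2, the S-phase subunit of ribonucleotide reductase, GINS4 of the GINS complex and RFC3 of the clamp loader. In JMJD3 cells they belonged to RRM2, to MCM10, which activates the helicase, and to POLE2 of polymerase epsilon.

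By limma with Benjamini-Hochberg adjustment over all 12415 genes, 2 of 41 genes were called in vector cells at an adjusted p under 0.05, GINS4 and RFC3, both lower. That is 4.88%, near the 3.99% of all genes called lower and under the 10.1% called in either direction. In JMJD3 cells 0 of 41 were called, with a lowest adjusted p of 0.0536, against 5.96% of all genes. At an unadjusted p under 0.05, 18 genes were lower in vector cells (12.8% of all genes) and 14 in JMJD3 cells (12.1% of all genes), and 0 were higher. Both tumor-dissociated arrays lay below both cultured arrays for 35 of 41 genes in vector cells (85.4%), where 30.8% of all genes did, and for 26 of 41 in JMJD3 cells (63.4%), where 29% of all genes did. For 19 of 41 genes all 4 tumor-dissociated arrays lay below all 4 cultured arrays (12.9% of all genes), and for 0 genes all 4 lay above (12.5% of all genes).

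**Figure D1:**
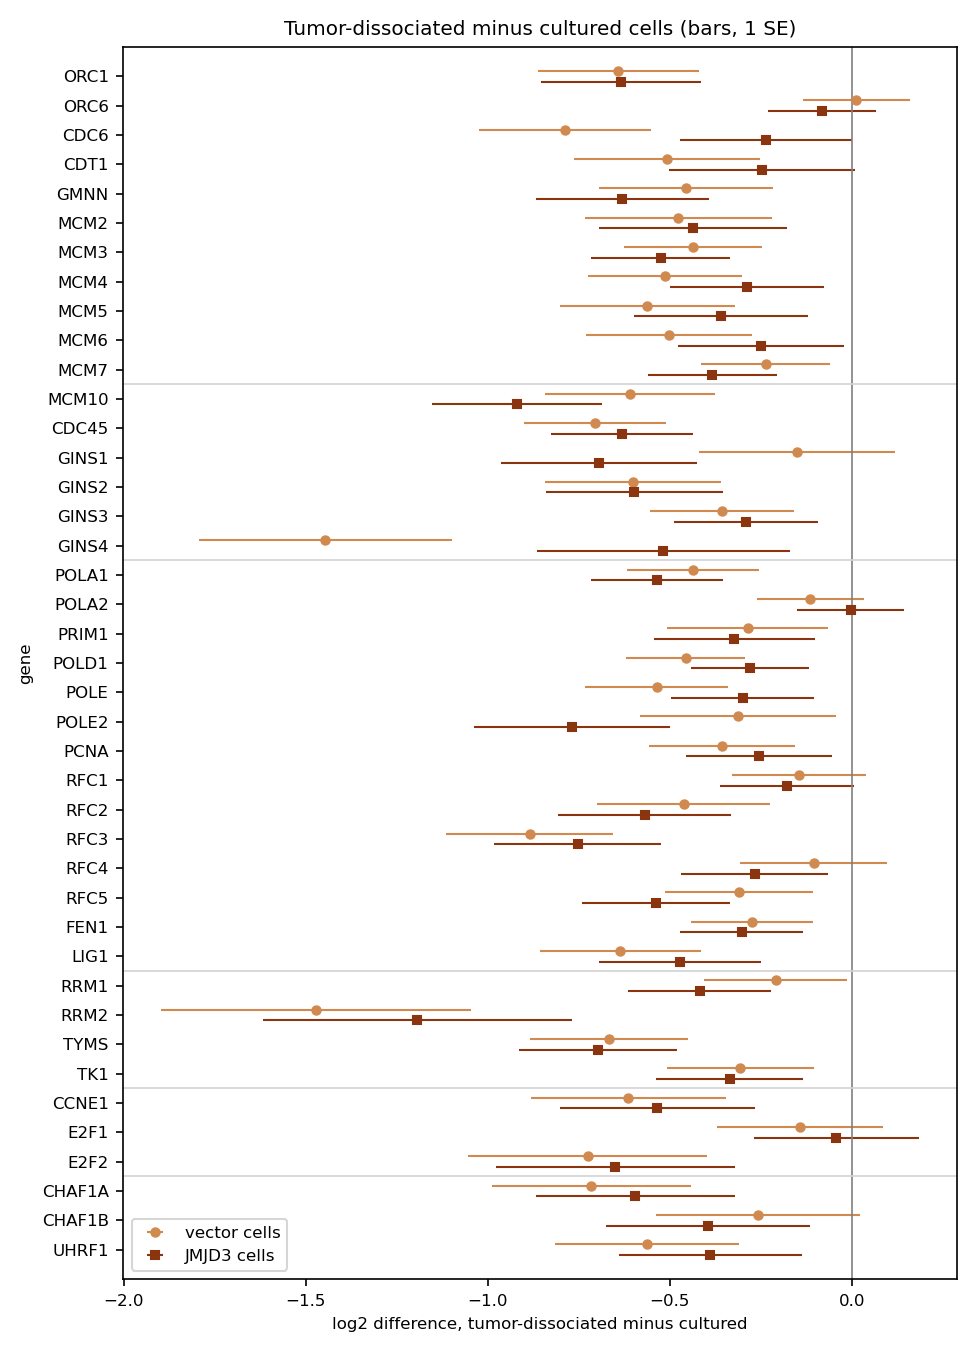
Log2 difference (x axis) between tumor-dissociated and cultured cells for each of 41 genes (y axis, grouped by role) in vector cells (circles) and JMJD3 cells (squares), with bars of 1 SE. Nearly all points lie left of 0, RRM2 and GINS4 farthest in vector cells and RRM2 and MCM10 in JMJD3 cells, while ORC6, POLA2 and E2F1 lie near 0.

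When vector and JMJD3 cells were averaged, which sets 4 tumor-dissociated arrays against 4 cultured arrays and was chosen after seeing the data, 14 of 41 genes were called lower (34.1%), against 10.7% of all genes called lower and 22.5% in either direction, and the median was -0.46. The 14 were ORC1, GMNN, MCM3, MCM10, CDC45, GINS2, GINS4, POLA1, POLD1, RFC3, LIG1, RRM2, TYMS and CHAF1A. The count depended on single arrays. Leaving out replicate 2 of the cultured vector cells gave 1 (3.71% of all genes were then called lower), and leaving out replicate 2 of the cultured JMJD3 cells gave 2 (4.96%). Among tumor-dissociated cells, leaving out vector replicates 1 and 2 in turn gave 9 and 8 (8.79% and 8.28% of all genes), and leaving out JMJD3 replicates 1 and 2 in turn gave 6 and 27 (7.43% and 11.9%). Leaving out both arrays that stood apart gave 7 (7.79%).

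Licensing genes, which load the MCM helicase, had a median difference between origins of -0.50 in vector cells and -0.36 in JMJD3 cells, with 10 and 11 of 11 below 0 and none called in either. The 6 subunits of the MCM ring, the motor that unwinds DNA, had similar values: MCM2 to MCM7 differed by -0.24 to -0.56 in vector cells and by -0.25 to -0.53 in JMJD3 cells. MCM3 read 6099 and 7463 in cultured vector cells, 6377 and 7395 in cultured JMJD3 cells, 4477 and 5620.0 in tumor-dissociated vector cells, and 4464 and 5166 in tumor-dissociated JMJD3 cells. All 4 tumor-dissociated values were below all 4 cultured ones, and the averaged difference was -0.48 ± 0.13 (SE, adjusted p = 0.0327). ORC1, the origin recognition subunit whose level follows the cell cycle, read 455 and 573 in cultured vector, 397 and 516 in cultured JMJD3, 359 and 368 in tumor-dissociated vector, and 303 and 354 in tumor-dissociated JMJD3 cells. Its groups did not overlap between origins, and its differences were nearly equal, -0.64 ± 0.22 (SE) in vector and -0.63 ± 0.22 in JMJD3 cells.

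CDC6, which with CDT1 brings the helicase to the origin, differed by -0.79 ± 0.24 (SE) between origins in vector cells (adjusted p = 0.0692) and by -0.24 ± 0.24 in JMJD3 cells. Its intensities were 209.9 and 279 in cultured vector, 203 and 232 in cultured JMJD3, 182 and 183 in tumor-dissociated vector, and 194 and 205 in tumor-dissociated JMJD3 cells, so that the JMJD3 values overlapped between origins. They are near the background level of 161.4, and the differences after background correction are wider than the ratios of these intensities. CDT1 differed by -0.51 and -0.25. GMNN, geminin, the inhibitor of CDT1, differed by -0.45 in vector and -0.63 in JMJD3 cells, and its averaged difference was -0.54 ± 0.17 (SE, adjusted p = 0.0474). The loading factors and their inhibitor were thus both below 0 in both constructs.

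ORC6, the smallest subunit of the origin recognition complex, stood nearest 0 in vector cells at 0.01 ± 0.15 (SE, adjusted p = 0.968), through a probe near the top of the intensity range. That probe read 24558 to 27425 on the 8 arrays, where the highest intensity of any probe was 31938. A dimmer ORC6 probe read 855 to 1185 on the cultured arrays and 480 to 719 on the tumor-dissociated arrays, with no overlap. It differed by -0.77 ± 0.25 in vector and -0.97 ± 0.25 in JMJD3 cells (adjusted p = 0.0925 and 0.0567 with every probe tested on its own), so the probes of ORC6 gave different sizes of difference.

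The 6 helicase activation genes had medians of -0.61 in vector and -0.61 in JMJD3 cells, and all 6 were below 0 in both, GINS1 among them although its tumor-dissociated levels were not above background. GINS4, also known as SLD5, is 1 of the GINS subunits that join CDC45 and MCM into the active helicase. It read 369 and 558 in cultured vector cells, 333 and 311 in cultured JMJD3 cells, 258 and 208 in tumor-dissociated vector cells, and 212 and 315 in tumor-dissociated JMJD3 cells. Vector cells separated by origin, whereas the JMJD3 values overlapped. GINS4 fell by 1.45 ± 0.35 (SE) on the log2 scale in vector cells, 2.72-fold lower (95% interval -2.23 to -0.66, adjusted p = 0.0326), and differed by -0.52 ± 0.35 in JMJD3 cells (adjusted p = 0.386). These differences were taken after background correction. For so dim a probe they are wider than the ratios of the intensities given. The call was lost without cultured vector replicate 2 (adjusted p = 0.242), without tumor-dissociated vector replicate 2 (0.165) and without either cultured JMJD3 array (0.0565).

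MCM10, a scaffold that activates the loaded helicase, was lowest in tumor-dissociated JMJD3 cells. It read 1136 and 1379.7 in cultured vector, 1055 and 1413 in cultured JMJD3, 849 and 862 in tumor-dissociated vector, and 587 and 822 in tumor-dissociated JMJD3 cells. Origins did not overlap in either construct. The differences were -0.61 ± 0.23 (SE, adjusted p = 0.136) in vector and -0.92 ± 0.23 in JMJD3 cells (1.89-fold lower, adjusted p = 0.0536). CDC45, the helicase cofactor, read 2514 and 2864 in cultured vector, 2137 and 2585 in cultured JMJD3, 1744 and 1628 in tumor-dissociated vector, and 1348 and 1796 in tumor-dissociated JMJD3 cells, again with no overlap between origins. Its differences were -0.71 ± 0.20 and -0.63 ± 0.20 (adjusted p = 0.0524 and 0.0888), and the averaged difference was -0.67 ± 0.14 (adjusted p = 0.0102).

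GINS2 differed by -0.60 in both constructs, and GINS3 by -0.36 and -0.29. GINS1, also known as PSF1, was dim. It read 166 and 153 in cultured vector, 167 and 222 in cultured JMJD3, 152 and 155 in tumor-dissociated vector, and 153 and 159.9 in tumor-dissociated JMJD3 cells, so that no tumor-dissociated array was above the background level. In JMJD3 cells its mean level was at least 1.49-fold lower in tumor-dissociated than in cultured cells (adjusted p for the fitted difference 0.152), against the higher of the lowest signal above background and its own value. This bound leaves out the spread between replicates. Cultured JMJD3 replicate 1, at 167, was only just above the background level of 161.4, so the bound rests mainly on replicate 2, at 222. In vector cells no fold is given.

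The 14 fork genes had medians of -0.33 in vector and -0.31 in JMJD3 cells, and 14 of 14 were below 0 in both. RFC3 is a subunit of the clamp loader that opens PCNA. Its brightest probe read 1485 and 1886 in cultured vector, 1292 and 1427 in cultured JMJD3, 1045 and 869.6 in tumor-dissociated vector, and 709 and 1017 in tumor-dissociated JMJD3 cells. All tumor-dissociated values were below all cultured ones. RFC3 fell by 0.89 ± 0.23 (SE) on the log2 scale in vector cells, 1.85-fold lower (95% interval -1.40 to -0.37, adjusted p = 0.0420), and differed by -0.75 ± 0.23 in JMJD3 cells (adjusted p = 0.0862). The vector call held without either tumor-dissociated JMJD3 array and was lost without each of the other 6 arrays (adjusted p = 0.0688 to 0.292). It was also lost with the mean of its 3 probes, -0.57 (adjusted p = 0.259): the second probe differed by -0.79 and the third, a dim one, by -0.03.

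**Figure D2:**
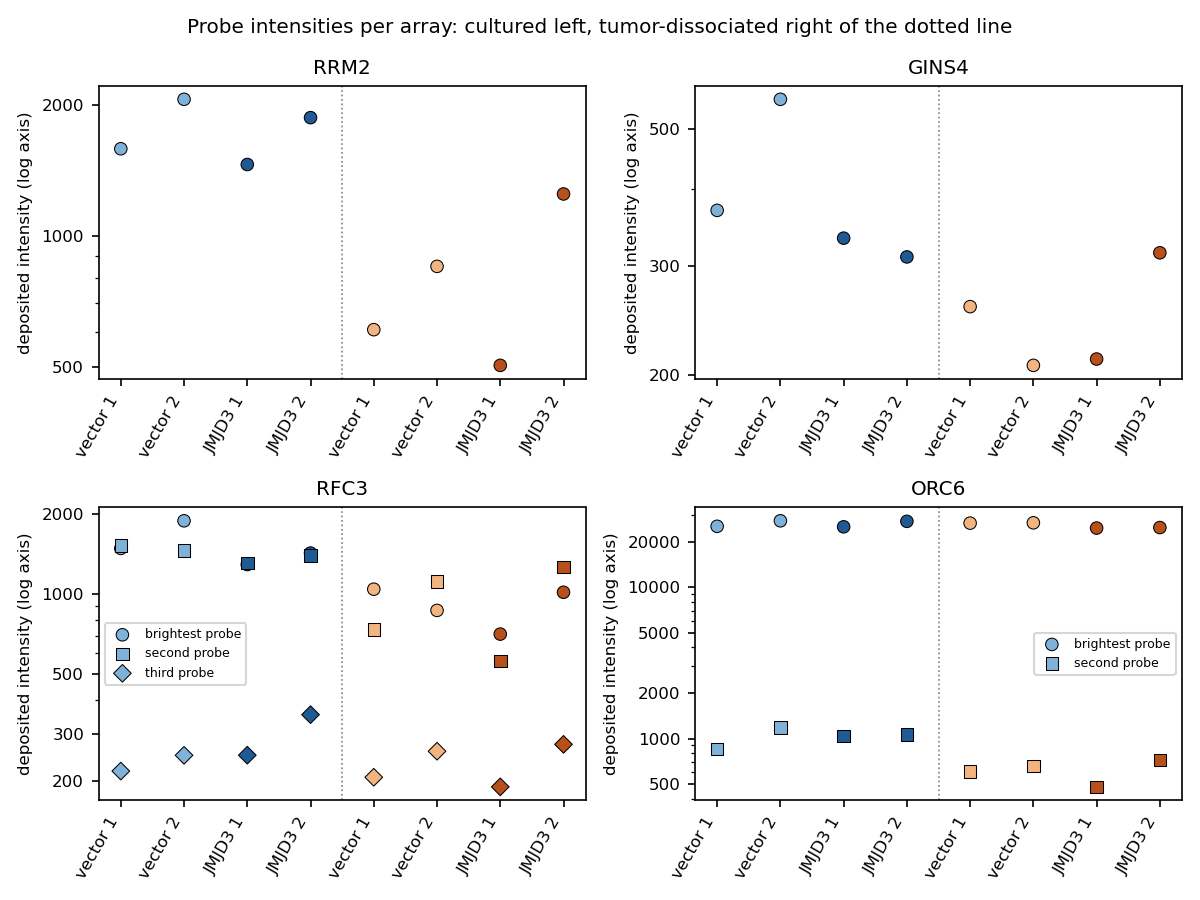
Deposited intensity (y axis, log scale) of each probe above background for RRM2, GINS4, RFC3 and ORC6 on the 8 arrays (x axis, vector and JMJD3 replicates 1 and 2, cultured left and tumor-dissociated right of the dotted line), each point 1 array. RRM2 lies at 1461 to 2065 in culture and at 503 to 1249.6 in tumor-dissociated cells, and the bright ORC6 probe stays between 24558 and 27425 while its dimmer probe does not overlap between origins.

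The other clamp loader subunits differed less than RFC3 did: RFC1 by -0.14 and -0.18, RFC2 by -0.46 and -0.57, RFC4 by -0.10 and -0.27, and RFC5 by -0.31 and -0.54 in vector and JMJD3 cells. No test of RFC3 against its partners was made. Among the polymerases, POLA1, the catalytic subunit of the priming polymerase, differed by -0.44 and -0.54, with an averaged difference of -0.49 ± 0.13 (SE, adjusted p = 0.0266). Its partner POLA2, the regulatory subunit, stood near 0 at -0.11 ± 0.15 in vector and -0.00 ± 0.15 in JMJD3 cells. POLA2 read 1532 and 1407 in cultured vector, 1345 and 1402 in cultured JMJD3, 1369 and 1361 in tumor-dissociated vector, and 1351 and 1389.5 in tumor-dissociated JMJD3 cells, a span that overlapped between origins.

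POLD1 and POLE, the catalytic subunits of the lagging- and leading-strand polymerases, differed by -0.46 and -0.54 in vector cells and by -0.28 and -0.30 in JMJD3 cells, and the average was called for POLD1 (-0.37 ± 0.12 SE, adjusted p = 0.0479). POLE2, the second subunit of polymerase epsilon, read 831 and 1029.5 in cultured vector, 863 and 1030.3 in cultured JMJD3, 738 and 791 in tumor-dissociated vector, and 468 and 766 in tumor-dissociated JMJD3 cells. The low value of 468 came from replicate 1 of the last group, and the difference in JMJD3 cells was -0.77 ± 0.27 (SE, adjusted p = 0.1202). PCNA, the sliding clamp, differed by -0.36 and -0.25 and the primase PRIM1 by -0.29 and -0.32. LIG1, which seals lagging-strand fragments, differed by -0.64 and -0.47 (average -0.55 ± 0.16, adjusted p = 0.0342) and FEN1, which trims them, by -0.27 and -0.30.

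Of the 4 deoxynucleotide genes, all were below 0 in both constructs, with medians of -0.49 and -0.56. RRM2 limits the making of deoxynucleotides and is made in S phase. It read 1588 and 2065 in cultured vector, 1461 and 1874 in cultured JMJD3, 608 and 851 in tumor-dissociated vector, and 503 and 1249.6 in tumor-dissociated JMJD3 cells. No tumor-dissociated value reached the lowest cultured one, although the replicates of the last group stood far apart. The differences were -1.47 ± 0.43 (SE, adjusted p = 0.0604) in vector and -1.19 ± 0.43 (adjusted p = 0.126) in JMJD3 cells. Averaged, RRM2 fell by 1.33 ± 0.30 on the log2 scale, 2.52-fold lower (adjusted p = 0.0144). Without both arrays that stood apart the vector difference was -1.76 (adjusted p = 0.00486) and the JMJD3 difference -0.44 (0.344); each tumor-dissociated group is then 1 array, and the spread behind these p-values comes from the cultured pairs alone.

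RRM1, the large subunit of the same enzyme, differed by -0.21 and -0.42. TYMS, which makes thymidylate, read 6516 and 7116 in cultured vector, 6018 and 6316 in cultured JMJD3, 3853 and 4860.0 in tumor-dissociated vector, and 3142 and 4699 in tumor-dissociated JMJD3 cells. Its origins did not overlap, and its differences were -0.67 ± 0.22 and -0.70 ± 0.22 (SE, adjusted p = 0.0878 and 0.0898), with an average of -0.68 ± 0.15 (1.60-fold lower, adjusted p = 0.0143). TK1, the salvage kinase for thymidine, differed by -0.31 and -0.34.

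The upstream regulators differed between origins by unequal amounts, a comparison that was not tested. E2F1, an activator E2F, read 255 and 289 in cultured vector, 256 and 239 in cultured JMJD3, 276 and 237 in tumor-dissociated vector, and 218 and 273 in tumor-dissociated JMJD3 cells. These groups overlapped, and the differences were -0.14 ± 0.23 and -0.04 ± 0.23 (SE, adjusted p = 0.748 and 0.93). E2F2, another activator, differed by -0.73 and -0.65, and CCNE1, the cyclin that drives entry into S phase with CDK2, by -0.61 and -0.53, none of them called. In replication-coupled chromatin, CHAF1A, the large CAF-1 subunit, differed by -0.72 and -0.59 (average -0.65 ± 0.19, adjusted p = 0.0396). CHAF1B, its partner, differed by -0.26 and -0.40, and UHRF1, which recruits the maintenance DNA methyltransferase to new DNA, by -0.56 and -0.39.

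Between origins, different probes of a gene mostly gave the same direction. Of 14 genes with several probes above background, all probes were below 0 for 12 in vector cells, and the probes of MCM7 and ORC6 disagreed. In JMJD3 cells all 14 had every probe below 0. Over single probes, 55 of 57 were below 0 in vector cells and 57 of 57 in JMJD3 cells. For JMJD3 against vector, the probes disagreed in direction for 10 of the 14 genes in culture and for 5 in tumor-dissociated cells. In those comparisons 43 and 40 of the 57 probes were below 0. A dimmer MCM3 probe passed the test in vector cells when each probe was tested on its own (-0.88 ± 0.22 SE, adjusted p = 0.0407).

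The genes varied together from array to array, also within a group. The first principal component of the 41 genes over the 8 arrays held 83.1% of their variance and the second 5.47%. It includes the difference between origins, and as the genes were not scaled, those that varied most weigh most. No such value is given for all genes. Relative to its own mean over the arrays, the median gene stood at 0.11 and 0.44 in cultured vector replicates 1 and 2, 0.04 and 0.26 in cultured JMJD3, -0.17 and -0.14 in tumor-dissociated vector, and -0.50 and -0.04 in tumor-dissociated JMJD3 cells. Cultured vector replicate 2 was the highest of the 8 arrays for 33 of 41 genes (14% of all genes), and tumor-dissociated JMJD3 replicate 1 the lowest for 33 of 41 (19.6% of all genes).

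**Figure D3:**
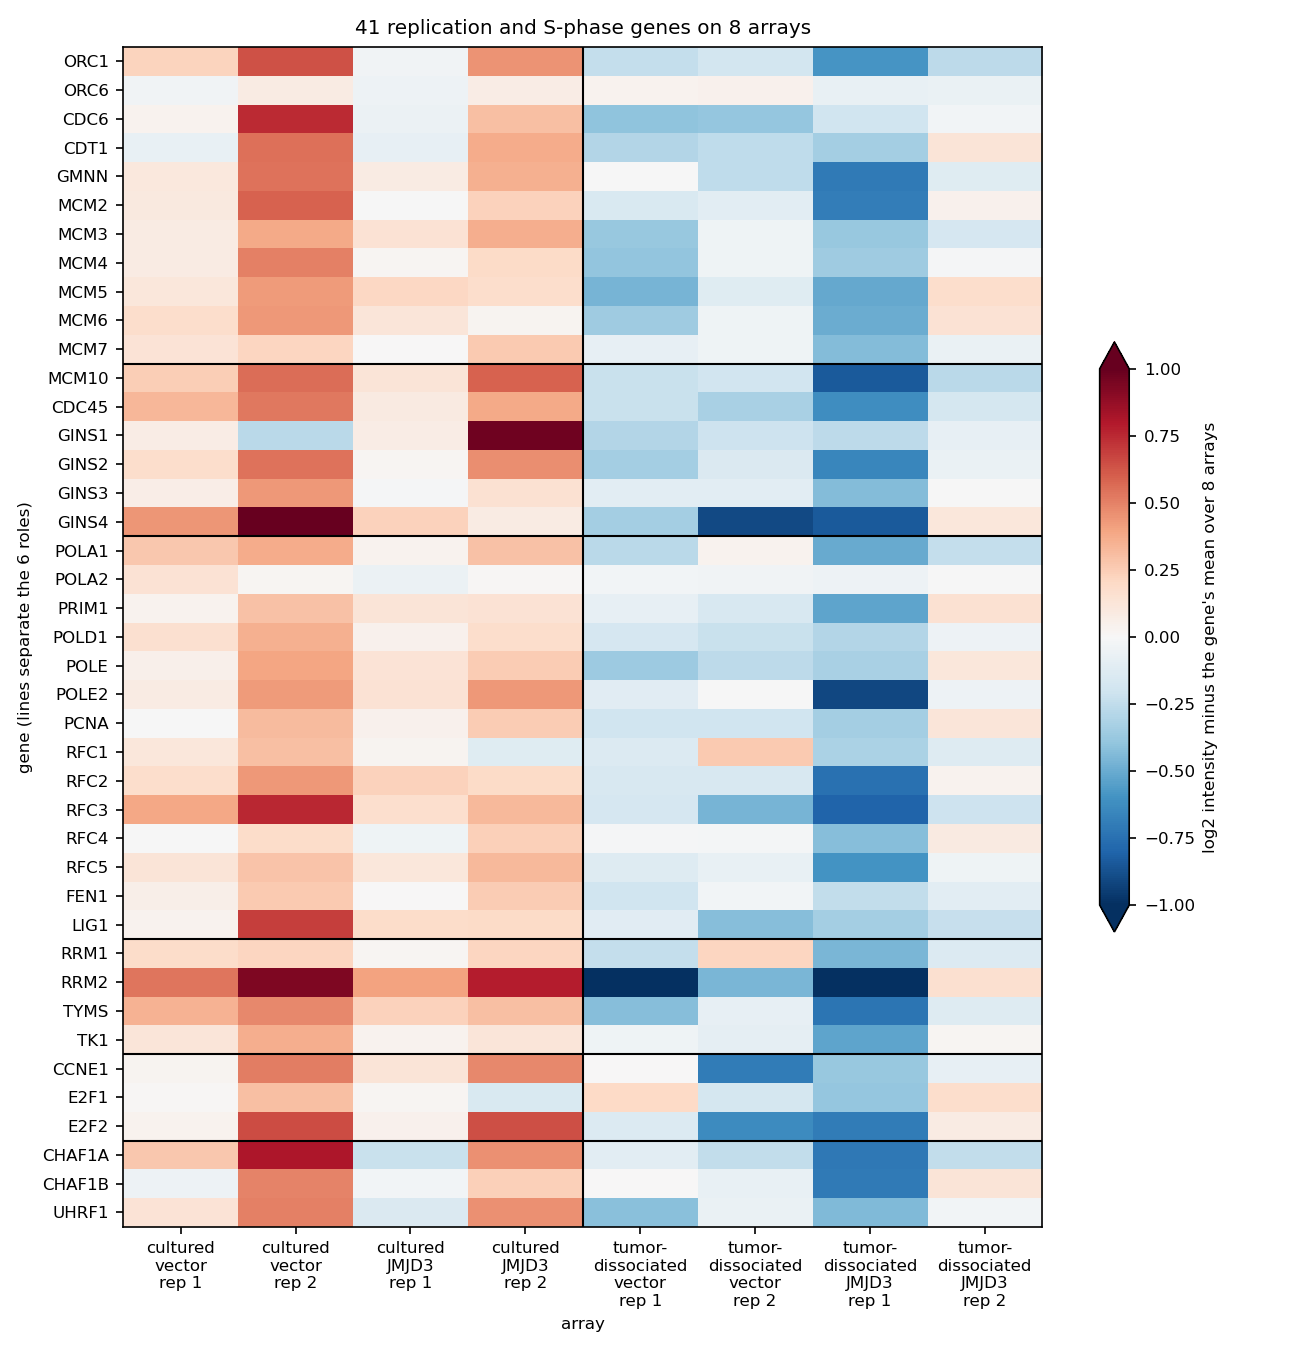
Heat map of 41 genes (rows, grouped by role) on the 8 arrays (columns), coloured by log2 intensity minus the mean of the gene over the arrays, red above and blue below, with colours saturating at 1 and -1. The cultured side is mostly red, most in vector replicate 2 with a median of 0.44, and the tumor-dissociated side mostly blue, most in JMJD3 replicate 1 with a median of -0.50.

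Replicates 1 and 2 of tumor-dissociated JMJD3 cells differed for 41 of 41 genes in the same direction, replicate 2 being higher by a median of 0.47, where 46.7% of all genes were higher on replicate 2. The same held for 39 of 41 genes in cultured vector cells (median 0.31, 47.1% of all genes) and 35 of 41 in cultured JMJD3 cells (median 0.22, 50.6%), but for 25 of 41 in tumor-dissociated vector cells (median 0.02, 50.8%). The spread between replicates of 1 group was therefore as large, in tumor-dissociated JMJD3 cells, as the median difference of -0.42 between origins. Mitotic genes, 20 genes that act after S phase, followed that difference in tumor-dissociated JMJD3 cells, with 20 of 20 higher on replicate 2 (median 0.52). In cultured vector cells they did not, with 5 of 20 higher (median -0.12).

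**Figure D4:**
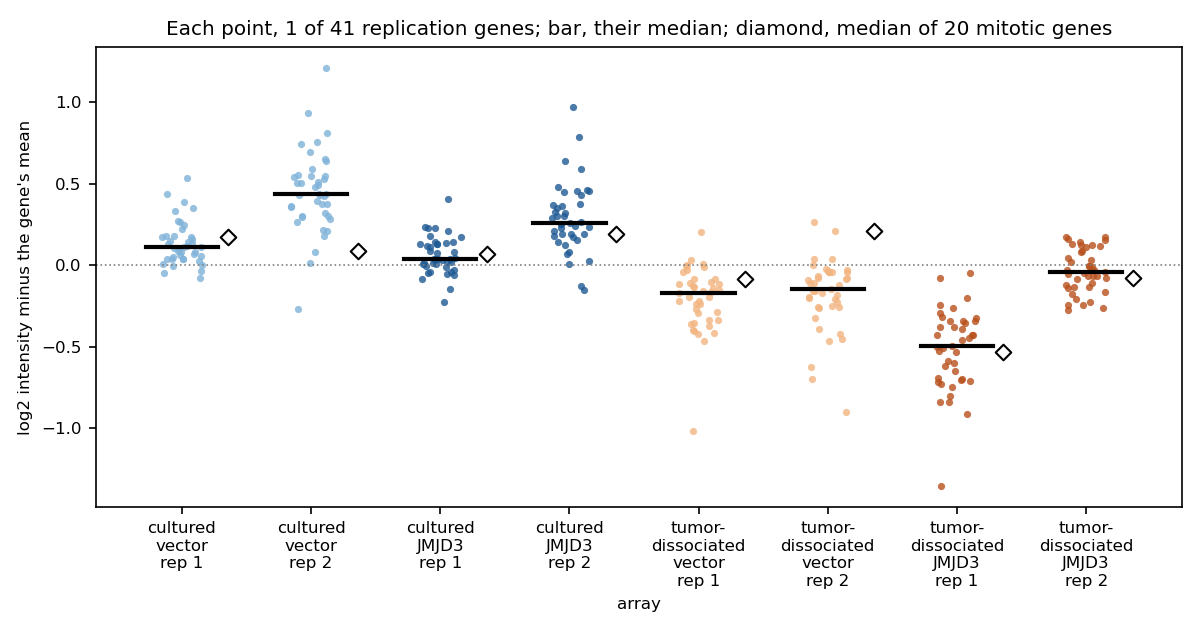
Log2 intensity minus the mean of the gene over the arrays (y axis) for 41 genes (points) on each of the 8 arrays (x axis), with a bar at their median and a diamond at the median of 20 mitotic genes. The medians of the replication genes run from 0.44 in cultured vector replicate 2 to -0.50 in tumor-dissociated JMJD3 replicate 1, and the 2 arrays of a group stand apart by up to 0.47 in the median gene.

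The origin difference in JMJD3 cells depended on that pair of arrays. Without replicate 1 of the tumor-dissociated JMJD3 cells the median was -0.18 and without replicate 2 it was -0.66, with 9 genes called lower, where 3.91% of all genes were. In vector cells the median stayed between -0.31 and -0.63 whichever array was left out. Without both arrays that stood apart, the medians were -0.48 in vector cells, with 39 of 41 genes below 0, and -0.18 in JMJD3 cells, with 36 of 41 below 0.

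JMJD3 expression was not accompanied by a called change in any replication gene. Against vector cells, 0 of 41 genes were called in culture, with a lowest adjusted p of 1.00, against 0.0886% of all genes, and 0 of 41 in tumor-dissociated cells, with a lowest adjusted p of 0.566, against 0.822% of all genes. At an unadjusted p under 0.05 there was 1 in culture (GINS1, higher, 4.34% of all genes) and 0 in tumor-dissociated cells (13.7% of all genes). In culture 35 of 41 genes had a log2 difference (JMJD3 minus vector) below 0, with a median of -0.12, beside 51.9% of all genes and a median of -0.01. In tumor-dissociated cells 26 of 41 were below 0, with a median of -0.11, beside 50.2% of all genes. Both medians lie within 0.211, the pooled spread of the median gene between replicates.

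The sign of both medians changed when certain single arrays were left out. In culture the median was 0.05, with 15 of 41 below 0, without vector replicate 2, and 0.02, with 20 below 0, without JMJD3 replicate 1. It was -0.28 without vector replicate 1 and -0.18 without JMJD3 replicate 2, with 40 of 41 below 0 in each. Replicate 2 stood higher in both cultured groups, so leaving out 1 array also sets unlike replicate numbers against each other. In replicate 1 the median gene stood at 0.11 in cultured vector and 0.04 in cultured JMJD3 cells, and in replicate 2 at 0.44 and 0.26. Whether the numbers mark shared batches was not tested. In tumor-dissociated cells the median was 0.12, with 8 of 41 below 0, without tumor-dissociated JMJD3 replicate 1, and -0.37, with 40 of 41 below 0, without replicate 2. The 95% interval lay within 1 log2 unit of 0, which is 2-fold, for 37 of 41 genes in culture and 38 of 41 in tumor-dissociated cells, and the median SE was 0.222.

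**Figure D5:**
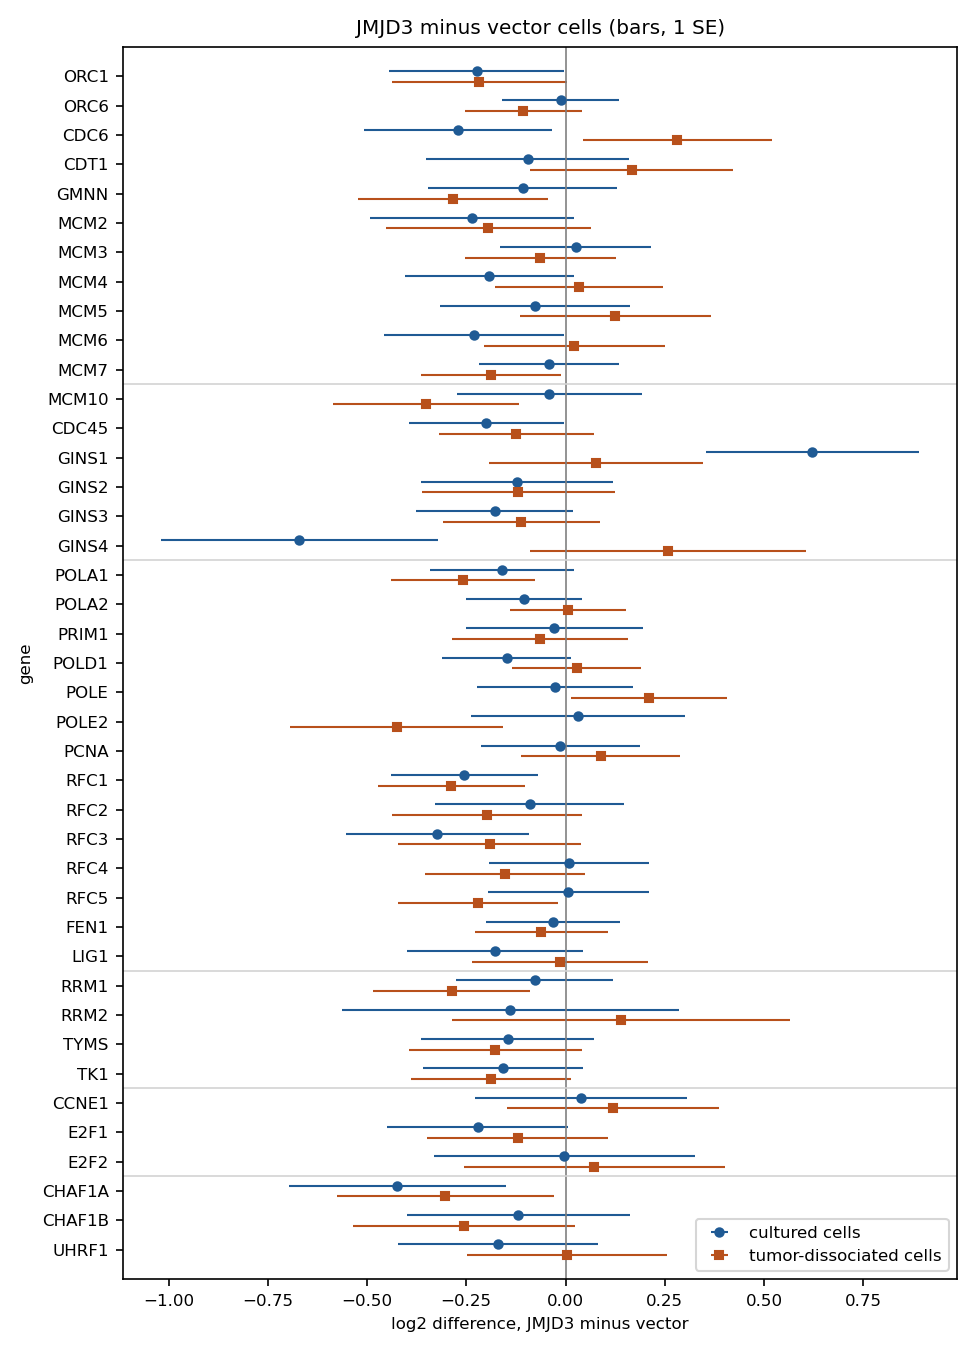
Log2 difference (x axis) between JMJD3 and vector cells for each of 41 genes (y axis, grouped by role) in cultured cells (circles) and tumor-dissociated cells (squares), with bars of 1 SE. Most points lie within 0.5 of 0, and GINS4 at -0.67 and GINS1 at 0.62 in cultured cells lie farthest out, none of them called. GINS1 was not above background in tumor-dissociated cells.

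The farthest values in culture were those of GINS4, -0.67 ± 0.35 (SE, adjusted p = 1.00), GINS1, 0.62 ± 0.27, which was above background on 1 of 2 vector arrays and 2 of 2 JMJD3 arrays, and CHAF1A, -0.42 ± 0.27. E2F2, RFC5 and RFC4 lay nearest 0, at -0.00, 0.01 and 0.01. In tumor-dissociated cells POLE2 (-0.43 ± 0.27), MCM10 (-0.35 ± 0.23) and CHAF1A (-0.30 ± 0.27) lay farthest out, and UHRF1, POLA2 and LIG1 nearest 0, at 0.00, 0.01 and -0.01. Among the licensing genes CDC6 differed by -0.27 ± 0.24 in culture and by 0.28 ± 0.24 in tumor-dissociated cells, and ORC1 by -0.22 in each.

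Whether the JMJD3 difference itself depended on origin was tested with the interaction term. It called 0 of 41 genes, with a lowest adjusted p of 0.792, against 0.105% of all genes, and 0 of 41 had an unadjusted p under 0.05 (6.88% of all genes). Leaving aside GINS1, which was not above background in tumor-dissociated cells, the largest terms were those of GINS4 (0.93 ± 0.49 SE), CDC6 (0.55 ± 0.34) and POLE2 (-0.46 ± 0.38), with 95% intervals that included 0, and GINS2, ORC1 and FEN1 lay nearest 0. The difference between GINS4 in vector cells, where it was called between origins, and in JMJD3 cells, where it was not, is this same term (adjusted p = 0.792).

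Other genes of the pathway and, as a reference, 20 mitotic genes, together 92 in 6 further lists of which 89 were tested, were counted in the same way. Of all genes, 3.99% were called lower between origins in vector cells and 2.2% in JMJD3 cells, and 52.9% and 51.2% were below 0. The counts in these lists, here and in the next paragraphs, are to be read beside these shares. Of 16 further licensing and origin firing genes, 14 were below 0 between origins in vector cells (median -0.27, 2 called lower) and 16 in JMJD3 cells (median -0.46, 1 called lower). MCMBP, an MCM-binding protein, fell by 0.73 ± 0.19 (SE, adjusted p = 0.0395) and TICRR, which helps to fire origins, by 0.69 ± 0.16 (adjusted p = 0.0288) in vector cells. CDC7, the kinase that fires origins, fell by 1.10 ± 0.23 in JMJD3 cells (adjusted p = 0.0299). Of 18 further fork genes, 16 and 15 were below 0 (medians -0.25 and -0.35), and DSCC1, a subunit of the clamp loader for cohesion, was called lower in both, by -0.74 ± 0.19 and -0.96 ± 0.19 (adjusted p = 0.0380 and 0.0251).

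Of 22 further E2F, RB and G1 to S genes, 14 and 17 were below 0 (medians -0.27 and -0.35). CCND1, cyclin D1, which with CDK4 and CDK6 starts RB inactivation, read 7370 and 8784 in cultured vector, 7226 and 7639 in cultured JMJD3, 3372 and 3113 in tumor-dissociated vector, and 4953 and 4536 in tumor-dissociated JMJD3 cells. It fell by 1.34 ± 0.16 (SE, adjusted p = 0.00128) on the log2 scale in vector cells and by 0.66 ± 0.16 (adjusted p = 0.0464) in JMJD3 cells, and its interaction term of 0.68 ± 0.23 was not called (adjusted p = 0.5502). E2F8, a repressor E2F, read 190.6 and 190.0 in cultured vector cells but was not above background on either tumor-dissociated vector array, at 151 and 157. Its level was at least 1.49-fold lower there, by the same bound as for GINS1 (adjusted p for the fitted difference 0.0481). With 1 tumor-dissociated array above background, E2F8 also passed the filter through cultured arrays. CDKN1A, the p21 inhibitor of cyclin-dependent kinases, differed between JMJD3 and vector cells by 0.58 ± 0.21 in culture (adjusted p = 0.992) and by 0.96 ± 0.21 in tumor-dissociated cells (adjusted p = 0.0836), both uncalled.

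Of 9 further S-phase chromatin genes 7 and 9 were below 0 (medians -0.24 and -0.27), with NASP, a histone chaperone, called lower in JMJD3 cells (-0.70 ± 0.17 SE, adjusted p = 0.0432). The 4 further deoxynucleotide genes tested had medians of 0.01 and -0.17, with 0 called. The 20 mitotic genes had medians of -0.08 in vector and -0.41 in JMJD3 cells, with 0 and 3 called lower: CENPE (-1.74 ± 0.23 SE, adjusted p = 0.00612), CENPF (-0.97 ± 0.18, adjusted p = 0.0210) and CDK1 (-0.89 ± 0.22, adjusted p = 0.0499), which move chromosomes or drive mitosis. Beside them the replication genes had -0.46 and -0.42. For JMJD3 against vector in tumor-dissociated cells, 20 of 20 mitotic genes were below 0 (median -0.34, CENPE called) and 26 of 41 replication genes were (median -0.11). Of all genes, 50.2% were below 0 in that comparison and 0.451% were called lower. With tumor-dissociated JMJD3 replicate 1 left out, 15 of the 20 were below 0 (median -0.10) and without both arrays that stood apart 10 were (median -0.02), with CENPE no longer called (adjusted p = 0.0570 and 0.125). Between origins in JMJD3 cells the mitotic median was -0.16 without that replicate, with CENPE called (-1.38, adjusted p = 0.0135) and CENPF and CDK1 not (0.103 and 0.201). No test of a difference between these lists was made.

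Most calls in these further lists also depended on single arrays. The call of CCND1 in vector cells held whichever array was left out (adjusted p = 0.00120 to 0.0214), and that in JMJD3 cells was lost without any 1 of the 8 (0.0532 to 0.249). In vector cells the calls of MCMBP, TICRR, DSCC1 and E2F8 were each lost without either cultured vector array, either cultured JMJD3 array or tumor-dissociated vector replicate 2, and those of MCMBP, DSCC1 and E2F8 also without its replicate 1. In JMJD3 cells the calls of CDC7, DSCC1 and CENPF were lost without either cultured JMJD3 array or tumor-dissociated JMJD3 replicate 1, and that of CENPE without cultured JMJD3 replicate 2 (adjusted p = 0.0856). Those of NASP and CDK1 held only without tumor-dissociated JMJD3 replicate 2. For JMJD3 against vector in tumor-dissociated cells, the call of CENPE was lost without either cultured JMJD3 array (0.0532), tumor-dissociated vector replicate 2 (0.168) or tumor-dissociated JMJD3 replicate 1.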

How the data were processed

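Total RNA of 8 samples was hybridised to 1-colour Illumina bead arrays. Per the submitters' processing notes and the series' design text, GenomeStudio was used (framework 2011.1, Gene Expression module 1.9.0), and how the arrays were normalized is not stated in these sources. The deposited intensity values of 47323 probes are linear, their sorted columns differ by at most 0.0057 on the log2 scale between arrays, as after quantile normalization, and no background had been subtracted. The 16 columns of a non-normalized table match no sample label, so neither its signals nor its detection p-values entered any step.

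From the deposited values, the background was corrected with normexp (offset 16) and log2 was taken. Differences and folds were taken after this correction, which widens them beyond the ratios of the printed intensities, most for dim probes. A probe was above background past an intensity of 161.4, the one-sided 0.01 point of a background with mode 139.7 and mirrored SD 0.0892 on the log2 scale. Probes above it on at least 2 arrays were kept (22287), and the brightest probe stood for each gene. Levels of different probes were not compared. Gene symbols came from the platform annotation, in which 30113 probes have 1 symbol, 8 have several and 17202 are unlisted.

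The 4 group means were fitted on all 8 arrays with limma 3.58.1 in R 4.3.3 (lmFit, eBayes; 4 residual and 5.11 prior degrees of freedom), with Benjamini-Hochberg adjustment over 12415 genes. The fit was tested on simulated data, with 200 genes changed in each of the 4 comparisons between groups. It recovered 0% of genes changed by 0.5 on the log2 scale, 43.5% to 56.5% at 1 and 94% to 95% at 2. A gene left uncalled may therefore still differ by 0.5, or by 1, a change the fit missed for many of the genes. Where fewer than 200 genes change, recovery may be lower. The interaction term and the average of both constructs were not simulated. An exact permutation test of 2 arrays against 2 cannot give a p below 0.333, so none was used. With 2 arrays a group, their number limits the precision. Promoters were searched in Python 3.11.15, and figures drawn with matplotlib 3.10.9.

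The genes, lists and settings were chosen with earlier results of these data known. Every replication gene could be named; full statistics were given for called genes and for the 3 farthest from and the 3 nearest to 0 in each comparison, and at most the 6 genes with the smallest p were named from the other lists, except CDK1, called as the seventh in JMJD3 cells and named because it completes a count of 3. Values for further genes beside these were added to describe each role. The alternatives were other background corrections, filters on dim probes, probe rules, spread estimates, a replicate block and leaving out arrays.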

Additional observations from a re-analysis of the deposited data

How the results depend on the processing

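The tumor-dissociated minus cultured median of the replication genes kept its sign in every setting run, and of 4223 recomputed values for single genes 3821 kept direction and side of the threshold, 81 gained and 74 lost it, 247 changed sign with neither value past it, and 0 reversed a call. In vector cells, where 2 genes were called lower, 1 was called with no filter on dim probes, 4 with a variance trend, with array weights or with only the compared groups, and 0 to 5 with 1 array left out. In JMJD3 cells, where 0 were called, 1 was called with a normexp offset of 50, with a filter on all 8 arrays or with a variance trend, and 0 to 9 with 1 array left out; the median was -0.18 to -0.66 with 1 array left out and -0.18 without both arrays that stood apart. The average of both constructs, with 14 called, gave 1 to 27 with 1 array left out and 7 without both arrays that stood apart. The JMJD3 against vector median in tumor-dissociated cells was -0.37 to 0.12 with 1 array left out and 0.10 without both arrays, and the median interaction term, 0.04, was -0.16 to 0.28 with 1 array left out. Of all genes, 3.99% were called lower in vector cells as reported and 1.66% with no filter. The share was 4.19% with a variance trend, 4.97% with array weights and 3.91% with only the compared groups. In JMJD3 cells it was 2.2% as reported and 2.63% with offset 50. There it was 2.82% with the all-array filter and 2.55% with a variance trend. In the average it was 10.7%. Counts with arrays left out come from fits in which some group, not always a compared one, holds 1 array. They are not to be read beside these shares, which come from fits with 2 arrays in every group. Fewer arrays leave fewer residual degrees of freedom, and a group left with 1 array is assumed to vary like the other groups. For the other settings the cause was not tested.

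With the replicate number as a block, 9 genes were called lower in vector cells, 5 in JMJD3 cells and 24 in the average, where 5.07%, 3.58% and 12.5% of all genes were called lower, and 0 in each JMJD3 comparison. The labels do not say that a number marks a shared culture, tumor or day, and deviations of same-numbered arrays correlated at 0.0463 to 0.371, not above 0.1 for every pair of groups, so the numbers were used as names and not as pairs; whether same-numbered arrays shared a batch was not tested. Over all genes, the alternatives other than leaving out 1 array gave 5 to 44 calls for JMJD3 against vector in culture (11 as reported), 15 to 168 in tumor-dissociated cells (102), 263 to 1161 between origins in JMJD3 cells (740) and 7 to 35 for the interaction term (13), the lowest and highest under no background correction, all-array filter, only the compared groups or the block.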
